A study of Mus musculus with 16 samples.

Results

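The genes described here are 78 developmental transcription factor genes, the rows among the 20325 genes of the table whose symbol begins with Tbx, Gata, Pax, Lhx, Msx, Nkx, Irx, Pitx, Isl, En, Alx, Emx or Otx followed by a digit, together with the numbered family of Six2 (6 genes). The rule uses no measured value. The genes were then divided into 43 silent genes, with all 16 values under 10, and 35 expressed genes. Enriched messenger RNA was sequenced from C3H10T1/2 cells, a mouse mesenchymal cell line, in 2 libraries for each of 8 histone H3 transgenes. Every group overexpressed a stable lentiviral H3 transgene (transduction for 2 days, then puromycin at 1.5 µg/ml for 4 days), so no group was without one. The H3.3 groups carried H3.3 wild type, G34W, G34R, K27R, both G34W and K27R, or both G34W and K36R. The H3.1 transgene was either wild type or G34W. G34W stands for glycine 34 of the histone replaced by tryptophan, R in the other names for arginine, and K for lysine. All groups share 1 parental line and an endogenous set of histone genes.

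These 14 families bind DNA through a T-box (Tbx), zinc fingers (Gata), a paired domain (Pax) or a homeodomain, with 2 LIM domains beside it in Lhx and Isl. In the embryo they set the identity of tissues and body regions, and each is switched on in a limited set of lineages. Where they are off they are among the best known targets of PRC2, the complex that methylates lysine 27 of histone H3, and methylation at lysine 36 of the same tail hinders PRC2. The title of the series names G34 mutations of H3.3 and PRC2.

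Values are deposited signals, read here as RSEM expected counts multiplied by 1 constant in each library, and are not divided by gene length, so levels are compared between libraries and not between genes. A library held an estimated 26.0 to 49.1 M reads, 1 read was worth 0.758 to 1.25 in the deposited unit, and intervals below cover counting error only. The 6 libraries of both H3.1 groups and of G34W K36R were the deepest (34.8 to 49.1 M reads against 26.0 to 33.8 M). The H3.3 wild-type libraries differed by less than the sampling noise over the 2745 genes whose values were whole reads (a chi-square of 0.959 per degree of freedom, p = 0.936, but 1.23 over all 12435 genes, p = 2.25e-63) and were counted as 1 sample. By that measure the 2 libraries of G34R, of K27R, of G34W K27R and of G34W K36R also lay near each other (1.16 to 1.39), but over all genes they stood further from sampling noise, at 5.78, 3.14, 2.82 and 1.75 in this order. With the wild-type pair these are the 5 close pairs below. Over the genes with whole reads the libraries lay further apart for G34W of H3.3 (49.3) and for H3.1 (32.4 in wild type, 43.9 in G34W). Nothing in the labels tells separate cultures from repeat libraries, and the p-values therefore reflect a spread that may be technical. All 12 mesenchymal markers were at 10 or more in every library (Col1a1 between 47053 and 349916). Among the markers of other cell types Epcam, Krt18, Ptprc, Hbb-b1, Pecam1, Sox10, Sox2, Myod1, Myog and Pou5f1 were under 10 throughout. The epithelial marker Cdh1, the blood marker Cd68 and the neural marker Tubb3 were at 10 or more in every library. Their highest values were 299.9, 55.77 and 861.1 in this order. Krt8 (epithelial), Cdh5 (endothelial), Des (skeletal muscle) and Nanog (pluripotent) reached 27.36, 69.98, 150.3 and 12.71. The summed levels ran from 21.1 to 305 for the 4 epithelial, 13.7 to 55.8 for the 3 blood and 0 to 75.5 for the 2 endothelial markers. They ran from 33.2 to 862 for the 3 neural, 9.10 to 155 for the 3 skeletal muscle and 1.11 to 14.0 for the 2 pluripotent markers.

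The silent genes made up 55.1% of the 78 (95% Wilson interval 44.1 to 65.7%), against 32.1% of all genes in the table. This division uses the values and is given as a description. Of these, 13 had no read in any library: Alx1, Emx1, En2, Gata1, Irx4, Nkx2-4, Nkx6-1, Nkx6-2, Otx2, Pax7, Tbx4, Tbx19 and Tbx22. The Nkx genes, which pattern the neural tube, heart and endoderm, were silent in 11 of 13 cases, the Pax genes in 6 of 9 and the LIM-homeodomain Lhx genes in 5 of 8. The families with 4 of 6 members expressed were those of Gata, Irx and Six2, and the T-box genes stood at 7 of 13. Just under the line were Six3 (highest value 9.78), Alx4 (9.66), Gata5 (8.66) and Lhx5 (8.47). Just over it were Nkx3-2 (highest value 12.6), Nkx2-1 (20.5) and Tbx6 (35.5). The other silent genes included Irx6, Isl1, Lhx1, Lhx3, Lhx4, Lhx8, Msx3, Nkx1-2, Nkx2-2, Nkx2-3, Nkx2-5, Nkx2-6, Nkx2-9, Nkx6-3, Pax1, Pax2, Pax4, Pax5, Pax6, Pitx1, Pitx3, Six6, Tbx5, Tbx10 and Tbx21, each with a highest value between 0.770 and 6.81.

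**Figure D1:**
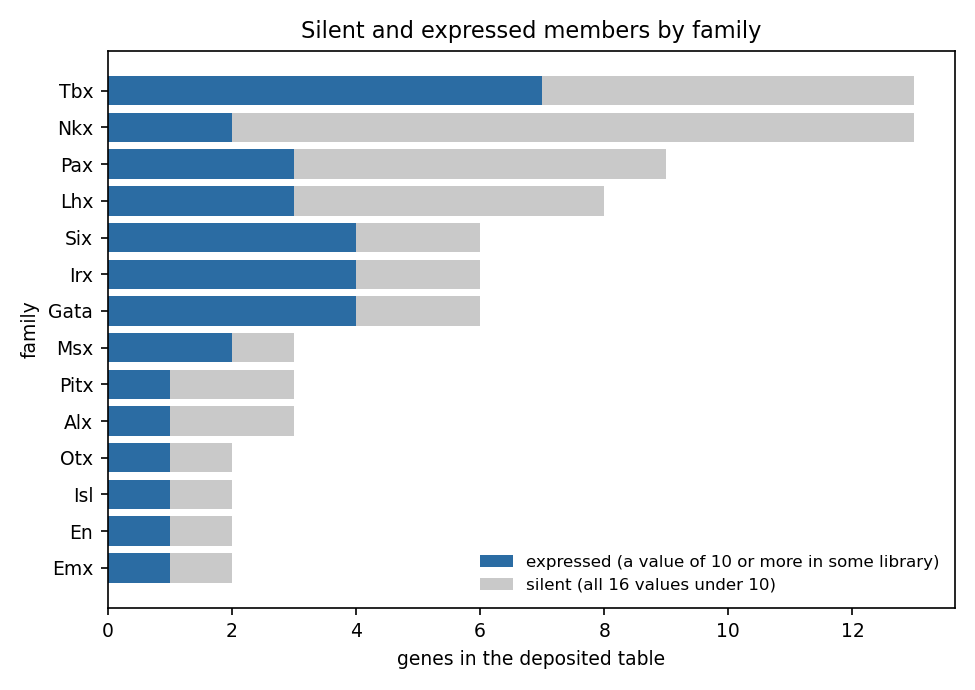
Number of genes (x axis) in each of the 14 families (y axis), with expressed genes in blue and silent genes, all 16 values under 10, in grey. Of the 13 Nkx genes 2 were expressed, and of the 13 Tbx genes 7.

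Some silent genes lay next to expressed ones on the chromosomes. In the RefSeq gene order of the assembly GRCm38.p6, 23 of the 78 genes took part in 14 pairs with no other protein-coding gene between them. In 8 of these pairs 1 gene was expressed and its neighbour silent, among them Tbx2 with Tbx4, Tbx3 with Tbx5, Six2 with Six3, Irx2 with Irx4, Irx5 with Irx6, Pax9 with Nkx2-9, and Nkx2-1 with Nkx2-9. Nkx2-1 counts as expressed through 1 library only. Both were expressed in 3 pairs, among them Irx1 with Irx2 and Irx3 with Irx5, and both silent in 3, among them Nkx2-2 with Nkx2-4 and with Pax1. With 35 of the 78 genes expressed and 43 silent, mixed pairs would also arise in a random order. The number of mixed pairs was not tested. Tbx4, the T-box gene of the hindlimb, had no read in any library, including those in which the neighbouring Tbx2 fell.

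Of the 35 expressed genes, 32 averaged 10 or more and entered the test. The other 3, among them Nkx2-1 and Nkx3-2, did not. A test over all 8 groups at once (limma, moderated F, Benjamini-Hochberg over 12670 genes) called 26 of the 32, where 66.6% of all genes tested were called. Those it did not call included En1, Gata4, Gata6 and Six2. Of the tested genes 7 (Lhx9, Msx2, Pax3, Pax8, Tbx2, Tbx20 and Tbx6) had a mean under 10 in at least 1 group and so passed the filter only through groups in which they were higher. When each close pair stood as 1 sample, 7 were called: Tbx2, Lhx9, Msx2, Tbx20, Pax3, Msx1 and Pax8. In that setting 1030 of the 12670 genes were called.

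**Figure D2:**
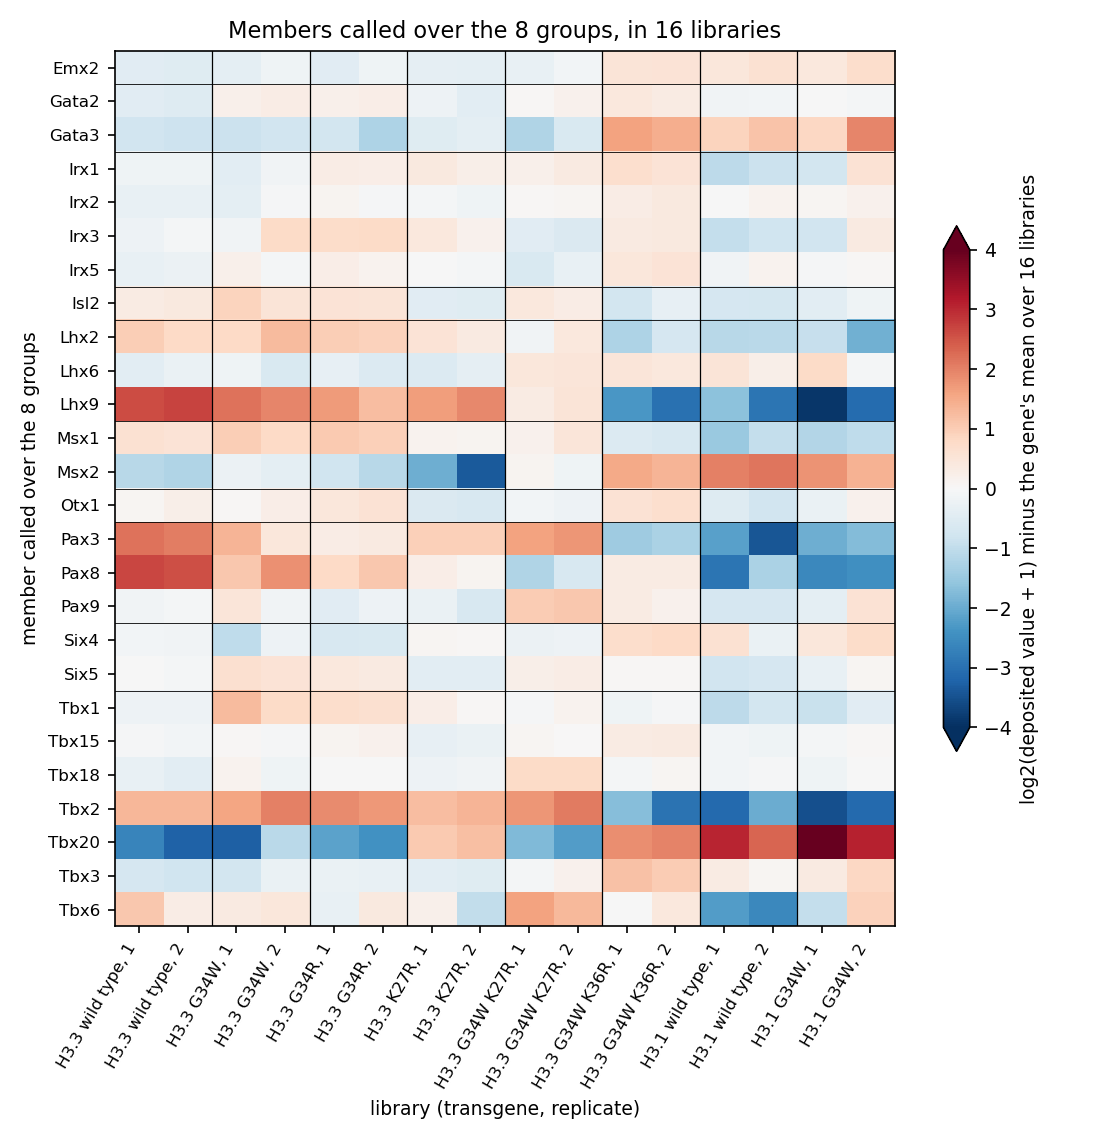
The 26 genes called over the 8 groups (rows, by family) in the 16 libraries (columns, 2 for each transgene). Colour gives log2(deposited value + 1) minus the mean of the gene over the libraries. Lhx9, Tbx2 and Pax3 are blue and Tbx20, Msx2 and Gata3 red in the 6 rightmost columns.

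In 9 of the 32 tested genes the 6 libraries of both H3.1 groups and of G34W K36R did not overlap the other 10. Of these genes 4 were higher there (Tbx20, Msx2, Gata3 and Emx2), against 9.34% of all genes tested, and 5 lower (Lhx9, Tbx2, Pax3, Lhx2 and Msx1), against 9.42%. In either direction 18.8% of all genes tested were separated in this way. This division of the libraries was chosen after the values were seen and is a description, and depth differed along the same line, so depth and group cannot be told apart. Some cell type markers were divided along this line too. Of the 12 mesenchymal markers 2 were lower in the 6 libraries without overlap, Col3a1 (10350.3 to 55226 against 91473 to 306047) and Sparc (54401 to 70809.6 against 87529 to 161318), and 10 overlapped. The summed mesenchymal level was 815589 to 1472500 in the 6 and 907014 to 1231080 in the 10. Of the 2 endothelial markers Pecam1 was lower without overlap (0 to 1.95 against 4.86 to 9.39), and their sum was 0 to 2.27 against 4.86 to 75.5. None of the epithelial, blood, neural, skeletal muscle and pluripotent markers was separated. The part of these markers in the result was not tested. In bulk RNA, fewer cells expressing a gene and less RNA per cell cannot be told apart either. Tbx20, a T-box factor of the heart, was at 1.94 and 0.969 with wild-type H3.3, 0.939 and 7.65 with its G34W form, 3.23 and 2.42 with G34R, 37.2 and 41.1 with K27R, 4.44 and 2.92 with G34W K27R and 65.5 and 71.4 with G34W K36R, and for H3.1 at 151 and 91.9 in the wild-type and 361 and 154 in the G34W group. It was at 7.65 or less with wild-type H3.3, G34W, G34R and G34W K27R, intermediate with K27R and highest with H3.1 G34W. Msx2, a homeodomain repressor induced by BMP signals in limb and skull, was at 21.5 and 20.4 with wild-type H3.3, 41.1 and 36.7 with its G34W form, 27.04 and 21.6 with G34R, 11.7 and 3.76 with K27R, 51.8 and 42.0 with G34W K27R and 139 and 123 with G34W K36R, and for H3.1 at 199 and 215 in the wild-type and 169.9 and 129 in the G34W group. Its lowest libraries were those of K27R. Lhx9, a LIM-homeodomain factor of gonad and limb, was at 90.0 and 95.9 with wild-type H3.3, 65.7 and 56.9 with its G34W form, 47.4 and 33.8 with G34R, 46.8 and 54.8 with K27R, 17.7 and 20.4 with G34W K27R and 1.96 and 0.882 with G34W K36R, and for H3.1 at 3.79 and 0.977 in the wild-type and 0 and 0.770 in the G34W group. It was highest with H3.3 wild type, lower with each H3.3 mutant, and at 5 reads or fewer in each of the 6 separated libraries. Msx1, the closest relative of Msx2 here, was at 433 and 416 with wild-type H3.3, 563 and 501 with its G34W form, 595 and 557 with G34R, 315 and 307 with K27R, 319 and 398 with G34W K27R and 194 and 182 with G34W K36R, and for H3.1 at 101 and 147 in the wild-type and 126 and 141 in the G34W group. Msx1 and Msx2 thus lay on opposite sides: the libraries with the lowest Msx1 were those with the highest Msx2.

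CpG content is the sequence feature that goes with PRC2 binding at silent developmental genes, and such binding was not tested here. By number of CG it was near the median of all promoter windows for Lhx9 and above it for Tbx20, Msx2 and Msx1. The promoter windows of these 4 genes are shown. They are RefSeq windows of 300 bases in build GRCm38.p6, 250 before and 50 after the annotated start, each on the minus strand, with every CG dinucleotide in capitals.
Tbx20, chr9:24774254-24774553: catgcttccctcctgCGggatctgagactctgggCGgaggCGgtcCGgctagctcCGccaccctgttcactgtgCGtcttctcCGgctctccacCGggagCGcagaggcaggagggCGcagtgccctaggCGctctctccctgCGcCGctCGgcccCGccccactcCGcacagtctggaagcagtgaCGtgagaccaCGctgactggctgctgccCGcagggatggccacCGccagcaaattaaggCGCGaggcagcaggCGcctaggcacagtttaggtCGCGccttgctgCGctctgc
Msx2, chr13:53472731-53473030: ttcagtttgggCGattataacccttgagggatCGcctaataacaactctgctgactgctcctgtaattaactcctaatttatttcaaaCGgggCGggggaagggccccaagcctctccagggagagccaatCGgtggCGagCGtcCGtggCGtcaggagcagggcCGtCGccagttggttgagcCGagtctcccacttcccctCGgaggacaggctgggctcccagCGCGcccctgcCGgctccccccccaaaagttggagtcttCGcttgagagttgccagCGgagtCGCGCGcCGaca
Lhx9, chr1:138842395-138842694: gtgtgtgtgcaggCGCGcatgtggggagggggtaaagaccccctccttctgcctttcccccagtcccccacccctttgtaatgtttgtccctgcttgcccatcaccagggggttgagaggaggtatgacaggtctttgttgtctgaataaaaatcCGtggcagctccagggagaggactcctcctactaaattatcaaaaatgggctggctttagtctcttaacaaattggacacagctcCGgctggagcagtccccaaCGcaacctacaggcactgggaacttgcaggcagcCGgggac
Msx1, chr5:37824536-37824835: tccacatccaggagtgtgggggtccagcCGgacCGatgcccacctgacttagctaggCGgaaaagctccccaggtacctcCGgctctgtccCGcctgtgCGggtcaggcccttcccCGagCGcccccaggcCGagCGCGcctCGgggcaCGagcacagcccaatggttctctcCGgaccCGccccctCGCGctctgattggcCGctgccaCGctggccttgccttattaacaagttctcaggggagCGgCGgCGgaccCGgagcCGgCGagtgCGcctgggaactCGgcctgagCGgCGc
The windows hold 26 CG in Tbx20, 22 in Msx2, 6 in Lhx9 and 29 in Msx1, against a median of 7 over 32851 windows of the same length, 94.6% of which hold at least 1. The ratio of observed to expected CG was 0.745, 0.788, 0.261 and 0.794 in this order, against a median of 0.384 over all windows. The homeodomain core TAATTA, searched on both strands, occurs 1 time in the Msx2 window and in none of the other 3, and in 5.29% of all windows. RefSeq windows were matched for 55 of the 78 genes (70.5%), so a summary of CpG content over the whole set is void and was not made.

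**Figure D3:**
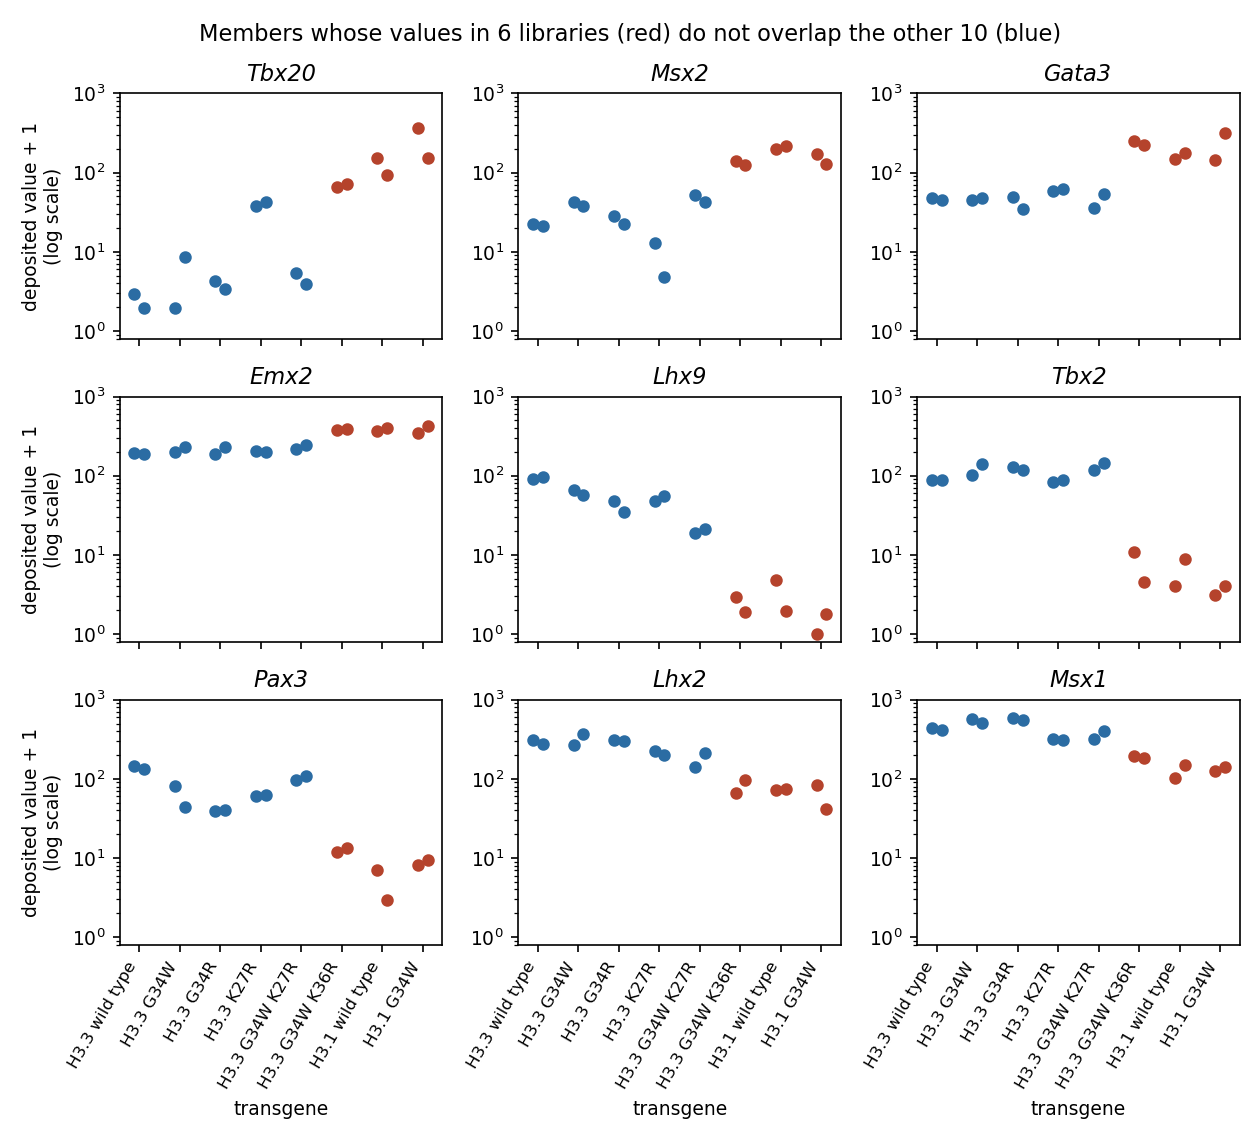
Deposited value + 1 on a log scale (y axis) in each library (points) by transgene (x axis) for 9 genes. Libraries of G34W K36R and of both H3.1 groups are red and the other 10 blue. Red points lie above all blue points for Tbx20, Msx2, Gata3 and Emx2 and below all of them for Lhx9, Tbx2, Pax3, Lhx2 and Msx1.

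Among the other T-box genes, Tbx2, a repressor in limb and heart development, was at 87.1 and 87.2 with wild-type H3.3, 102 and 142 with its G34W form, 129 and 116 with G34R, 81.9 and 88.5 with K27R, 116 and 146 with G34W K27R and 9.78 and 3.53 with G34W K36R, and for H3.1 at 3.03 and 7.82 in the wild-type and 2.07 and 3.08 in the G34W group. It was at 9.78 or less in the 6 separated libraries and at 81.9 or more elsewhere. Tbx3, its closest relative and a factor of the same tissues, was at 175 and 162 with wild-type H3.3, 169 and 234 with its G34W form, 235 and 231 with G34R, 210.5 and 199 with K27R, 264 and 320.0 with G34W K27R and 638 and 572 with G34W K36R, and for H3.1 at 353 and 299 in the wild-type and 361 and 501 in the G34W group. Tbx3 was at 299 or more in the 6 libraries with the lowest Tbx2, and highest with G34W K36R. Unlike Tbx2 it did overlap the other libraries, where G34W K27R reached 320.0. Tbx1, known for the pharyngeal arches, was at 505 and 510.5 with wild-type H3.3, 1413 and 1003 with its G34W form, 959 and 908 with G34R, 705 and 612 with K27R, 562 and 645 with G34W K27R and 525 and 570.4 with G34W K36R, and for H3.1 at 281 and 349 in the wild-type and 316 and 426 in the G34W group. The 4 libraries of G34W and G34R in H3.3 lay above the other 12. Tbx18, a factor of somites and of the mesenchyme around ureter and heart, had a lowest, median and highest value of 962, 1248 and 2228, and both libraries of G34W K27R (2228 and 2222) stood above the other 14. Tbx15, which acts in limb and skin mesenchyme, stayed between 814 and 1303. Tbx6, a gene of presomitic mesoderm, ran from 0.977 in H3.1 wild type to 35.5 in G34W K27R.

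Six2, Six4 and Six5 are homeodomain factors of a family that acts with Eya co-activators in muscle, kidney and sensory organs. They were each at 247 or more in every library. Six4 was at 484 and 476 with H3.3 wild type, 255 and 449.7 with H3.3 G34W and 842 and 915 with G34W K36R. For H3.1 it was at 790 and 432 in the wild-type and 720 and 875 in the G34W group. The lowest, median and highest values were 1016, 1368 and 1772 for Six2 and 247, 432 and 661 for Six5. Six5 was highest in the libraries of H3.3 G34W (661 and 618) and lowest in those of H3.1 wild type (247 and 261).

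The 3 expressed Pax genes differed from each other. Pax3, a regulator of muscle precursors and neural crest, was at 142 and 131 with wild-type H3.3, 80.7 and 42.6 with its G34W form, 37.7 and 39.9 with G34R, 60.6 and 61.1 with K27R, 95.4 and 108 with G34W K27R and 10.8 and 12.3 with G34W K36R, and for H3.1 at 6.06 and 1.95 in the wild-type and 7.25 and 8.47 in the G34W group. H3.3 wild type was the highest group and the 6 separated libraries the lowest. Pax8, a factor of thyroid and kidney, was at 196 and 184 with wild-type H3.3, 63.8 and 107 with its G34W form, 51.7 and 64.0 with G34R, 36.1 and 32.4 with K27R, 12.2 and 18.5 with G34W K27R and 37.2 and 37.9 with G34W K36R, and for H3.1 at 3.03 and 11.7 in the wild-type and 4.14 and 4.62 in the G34W group. Every other library was below those of H3.3 wild type, and G34W K27R (12.2 and 18.5) lay below G34W, K27R and G34W K36R. Pax9, needed for vertebral bodies and teeth, was highest in G34W K27R (330.1 and 344) and ran from 102 to 241 in the other groups.

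Lhx2, a LIM-homeodomain factor of limb bud and eye, was at 306 and 271 with wild-type H3.3, 267 and 371 with its G34W form, 306 and 296 with G34R, 227 and 201 with K27R, 142 and 209 with G34W K27R and 65.5 and 96.1 with G34W K36R, and for H3.1 at 71.3 and 73.3 in the wild-type and 81.9 and 40.0 in the G34W group. The 6 separated libraries were at 96.1 or less and the others at 142 or more. Lhx6, known from oral mesenchyme and cortical interneurons, had a lowest, median and highest value of 175, 248 and 459, with G34W K27R (367 and 375) and G34W K36R (382 and 362) above H3.3 G34W (240.3 and 175). Isl2, a factor of motor neurons, ran between 43.0 and 136. Among the homeodomain genes of head and limb, Emx2 was at 193 and 188 with H3.3 wild type, between 349 and 427 in the 6 separated libraries and at no more than 245 in the other 10. En1 stayed between 93.5 and 177 and Otx1 between 93.8 and 253.

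Gata factors are zinc-finger regulators of blood, heart and endoderm. Gata3 was at 47.4 and 44.6 with wild-type H3.3, 43.6 and 47.0 with its G34W form, 48.5 and 33.8 with G34R, 57.4 and 61.1 with K27R, 34.4 and 52.5 with G34W K27R and 248 and 223 with G34W K36R, and for H3.1 at 149 and 177 in the wild-type and 145 and 312 in the G34W group. It was at 145 or more in the 6 separated libraries and at 61.1 or less in the others. Gata2 was at 577 and 554 with H3.3 wild type, its lowest group, 919.8 and 982 with G34W, 908 and 953 with G34R and 1067 and 1001 with G34W K36R. Gata4 stayed between 424 and 623 over all libraries. Gata6 was at 557 and 229.6 in the 2 G34W libraries of H3.3, the first of which was the highest of all 16.

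The Irx genes, homeodomain factors of 2 chromosomal clusters, were expressed as Irx1 and Irx2 of the first and Irx3 and Irx5 of the second. Irx1 had a lowest, median and highest value of 438, 1056 and 1447, Irx3 of 92.5, 188 and 309, Irx5 of 502, 746 and 1109.9 and Irx2 of 1108, 1456 and 1894. Irx1 and Irx3 were lowest in H3.1 wild type (438 and 501, and 92.5 and 105), and the 2 libraries of H3.1 G34W disagreed (551 and 1364 for Irx1, 107 and 234 for Irx3). The libraries of a group differed by over 1.5-fold in 12 of the 32 tested genes for G34W of H3.1, 8 for G34W of H3.3, 7 for wild-type H3.1 and 1 or 2 in each other group. In the first 3 groups these were 37.5%, 25.0% and 21.9% of the genes, against 31.6%, 34.6% and 27% of all genes tested.

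The first comparison set G34W against wild-type H3.3. Tbx1 stood 2.38-fold higher (1413 and 1003 against 505 and 510.5), and Pax3 (80.7 and 42.6 against 142 and 131) and Pax8 (63.8 and 107 against 196 and 184) stood at 0.452 and 0.449 of wild type. None of the 3 passed the test. They were named because their libraries did not overlap and the change was large, and the libraries did not overlap in 18 of the 32 genes (56.2%), near the 54.7% of all genes tested. limma called 0 of the 32 genes, where 1.18% of all genes were called (0.75% higher, 0.434% lower), and 4 had an unadjusted p under 0.05 (Gata2, Tbx1, Six5 and Pax3). The fitted log2 fold change was 1.23 ± 0.26 for Tbx1 (adjusted p = 0.0528), -1.20 ± 0.53 for Pax3 (adjusted p = 0.372) and -1.19 ± 0.61 for Pax8 (adjusted p = 0.459). The median log2 fold change was 0.16 over the 32 genes and under 0.01 over all. The count was 3 when the wild-type libraries entered as 2 samples or with a replicate block. It was also 3 without H3.1 G34W replicate 1, H3.1 G34W replicate 2 or H3.3 G34W replicate 2, 2 without H3.1 wild type replicate 1 or 2, and 1 without H3.3 G34W replicate 1 or H3.3 wild type replicate 1.

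H3.3 G34R and H3.3 K27R were compared with the same wild-type libraries, so these comparisons and the one above are not independent. Gata2 rose in G34R (908 and 953 against 577 and 554; log2 fold change 0.72 ± 0.16, adjusted p = 0.04). This was the only member called, of 32, where 2.72% of all genes were called (1.75% higher, 0.963% lower). Pax3 (-1.79 ± 0.53, adjusted p = 0.12), Pax8 (-1.71 ± 0.61, adjusted p = 0.206) and Lhx9 (-1.19 ± 0.61, adjusted p = 0.409) had log2 fold changes below 0 and were not called. The libraries did not overlap in 23 of the 32 genes here and in 84.5% of all genes tested. With K27R, Tbx20 rose from 1.94 and 0.969 to 37.2 and 41.1, a ratio of 26.97-fold (95% counting interval 8.81 to 134) against 3 reads in wild type (adjusted p = 0.0247). It was again the only call, where 2.75% of all genes were called (1.85% higher, 0.908% lower). Pax8 (log2 fold change -2.44 ± 0.61, adjusted p = 0.0723) and Pax3 (log2 fold change -1.15 ± 0.53, adjusted p = 0.381) were below wild type and not called. The libraries did not overlap in 30 of the 32 genes and in 82.8% of all genes tested. Pax3 and Pax8 were thus lower than in wild type in all 6 libraries of these 3 mutants, with no call in any. Neither call held when each close pair stood as 1 sample (adjusted p = 1 for Gata2 and adjusted p = 0.936 for Tbx20). The G34R count was 0 without either library of G34R, K27R, G34W K27R or G34W K36R, 2 without either of H3.1 wild type and 3 without either of H3.3 G34W. The K27R count was 0 without G34R replicate 1, K27R replicate 2 or either library of G34W K36R, and 2 without either library of H3.1 wild type or H3.3 G34W. Tbx20 itself was not called without K27R replicate 1.

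The double mutants were compared with H3.3 G34W to ask what a second change on the same tail does. With G34W K27R, Tbx18 (2228 and 2222 against 1428 and 1149; log2 fold change 0.80 ± 0.13, adjusted p = 0.00175) and Lhx6 (log2 fold change 0.85 ± 0.27, adjusted p = 0.0483) rose. Pax8 (log2 fold change -2.38 ± 0.50, adjusted p = 0.00727), Tbx1 (log2 fold change -0.98 ± 0.21, adjusted p = 0.00765), Lhx9 (log2 fold change -1.63 ± 0.50, adjusted p = 0.0409) and Irx5 (log2 fold change -0.51 ± 0.16, adjusted p = 0.0435) fell. These 6 of 32 compare with 21.6% of all genes called (9.24% higher, 12.4% lower). None held when each close pair stood as 1 sample (adjusted p from 0.309 to 0.71). Tbx18 alone was called without any 1 library, and the count was 1 without G34W K27R replicate 1 and 3 without G34W K27R replicate 2 or either library of G34R, K27R or G34W K36R.

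With G34W K36R, 18 of the 32 genes were called, 10 higher and 8 lower, where 30.6% of all genes were called (14.4% higher, 16.2% lower). Tbx20 rose (65.5 and 71.4 against 0.939 and 7.65; log2 fold change 4.08 ± 0.65, adjusted p = 0.00154), as did Gata3 (log2 fold change 2.35 ± 0.36, adjusted p = 0.00136), Msx2 (log2 fold change 1.73 ± 0.41, adjusted p = 0.0109), Tbx3 (log2 fold change 1.60 ± 0.22, adjusted p = 0.000709) and Six4 (log2 fold change 1.37 ± 0.30, adjusted p = 0.00715). Smaller rises were called in Lhx6, Emx2, Irx2, Six2 and Tbx15, with log2 fold changes from 0.33 to 0.86. Lhx9 fell 43.2-fold (95% counting interval 14.8 to 218) to 3 reads over the group (adjusted p = 0.000154). Tbx2 (log2 fold change -4.12 ± 0.48, adjusted p = 0.000265), Pax3 (log2 fold change -2.25 ± 0.44, adjusted p = 0.00406), Lhx2 (log2 fold change -1.97 ± 0.35, adjusted p = 0.00266) and Msx1 (log2 fold change -1.49 ± 0.21, adjusted p = 0.000684) fell as well. Isl2, Tbx1 and Six5 were the other genes that fell (log2 fold changes of -1.24 ± 0.25, -1.12 ± 0.21 and -0.56 ± 0.15). Pax8 was among the 26 of 32 genes whose libraries did not overlap (69.9% of all genes), lower (37.2 and 37.9 against 63.8 and 107) and not called (adjusted p = 0.118). The median size of the log2 fold change, regardless of sign, was 0.83 over the 32 genes and 0.44 over all genes. When each close pair stood as 1 sample the count was 0 (adjusted p from 0.0648 for Tbx2 and 0.0651 for Lhx9 to 0.679 for Tbx15), and it was 10 without either library of G34W K36R. Gata3, Lhx2, Lhx9, Msx1, Pax3, Tbx1, Tbx2, Tbx20 and Tbx3 were called whichever 1 library was left out.

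Wild-type H3.1 was set against wild-type H3.3, which compares the replication-dependent histone with the replacement histone, neither with a point change. Of the 32 genes 15 were called, 5 higher and 10 lower, where 33.4% of all genes were called (16.3% higher, 17.0% lower). Tbx20 rose 83.6-fold (95% counting interval 29.2 to 420.0) from 3 reads over the group in H3.3 wild type (adjusted p = 0.000744), and Msx2 (199 and 215 against 21.5 and 20.4; log2 fold change 3.24 ± 0.50, adjusted p = 0.00123), Gata3 (log2 fold change 1.80 ± 0.45, adjusted p = 0.0123), Emx2 (log2 fold change 1.002 ± 0.23, adjusted p = 0.00771) and Tbx3 (log2 fold change 0.94 ± 0.27, adjusted p = 0.0238) rose. Lhx9 fell 39.0-fold (95% counting interval 16.4 to 100.1), to 6 reads over the group (adjusted p = 0.00035). Pax3 (log2 fold change -4.91 ± 0.53, adjusted p = 0.000164), Pax8 (log2 fold change -4.74 ± 0.61, adjusted p = 0.000459), Tbx2 (log2 fold change -3.89 ± 0.58, adjusted p = 0.00102), Lhx2 (log2 fold change -1.98 ± 0.43, adjusted p = 0.00641) and Msx1 (log2 fold change -1.80 ± 0.25, adjusted p = 0.000682) fell. Tbx6 fell 15.1-fold (95% counting interval 4.69 to 74.6), to 3 reads over the group (adjusted p = 0.0109). Isl2, Otx1 and Six5 completed the list (log2 fold changes of -1.05 ± 0.31, -0.81 ± 0.26 and -0.68 ± 0.19). When each close pair stood as 1 sample 6 were called, where 621 of all 12670 genes were called. They were Pax3, Msx2, Lhx9, Pax8, Tbx20 and Tbx2 (adjusted p from 0.0218 to 0.0357). All 6 belong to the 7 genes that passed the filter only through groups in which they were higher. Otx1 lost its call without any of 10 libraries and Tbx3 without H3.1 wild type replicate 1; the other 13 were called whichever library was left out.

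This comparison shares no library with that of G34W K36R and G34W. No member call of the latter held when close pairs were merged, so the sharing below depends on counting their libraries separately. Both comparisons came from the same fit, with the spread of each gene estimated over all groups together, so their calls are not independent. The 12 genes called in both had the same direction in each: Emx2, Gata3, Msx2, Tbx20 and Tbx3 higher and Isl2, Lhx2, Lhx9, Msx1, Pax3, Six5 and Tbx2 lower. They are 66.7% of the 18 and 80.0% of the 15 members called. Over all genes the calls shared in the same direction were 55.7% of the 3882 and 51.1% of the 4229. Of the 2200 genes called in both, 2161 had the same direction, so the common direction is not particular to the members.

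**Figure D4:**
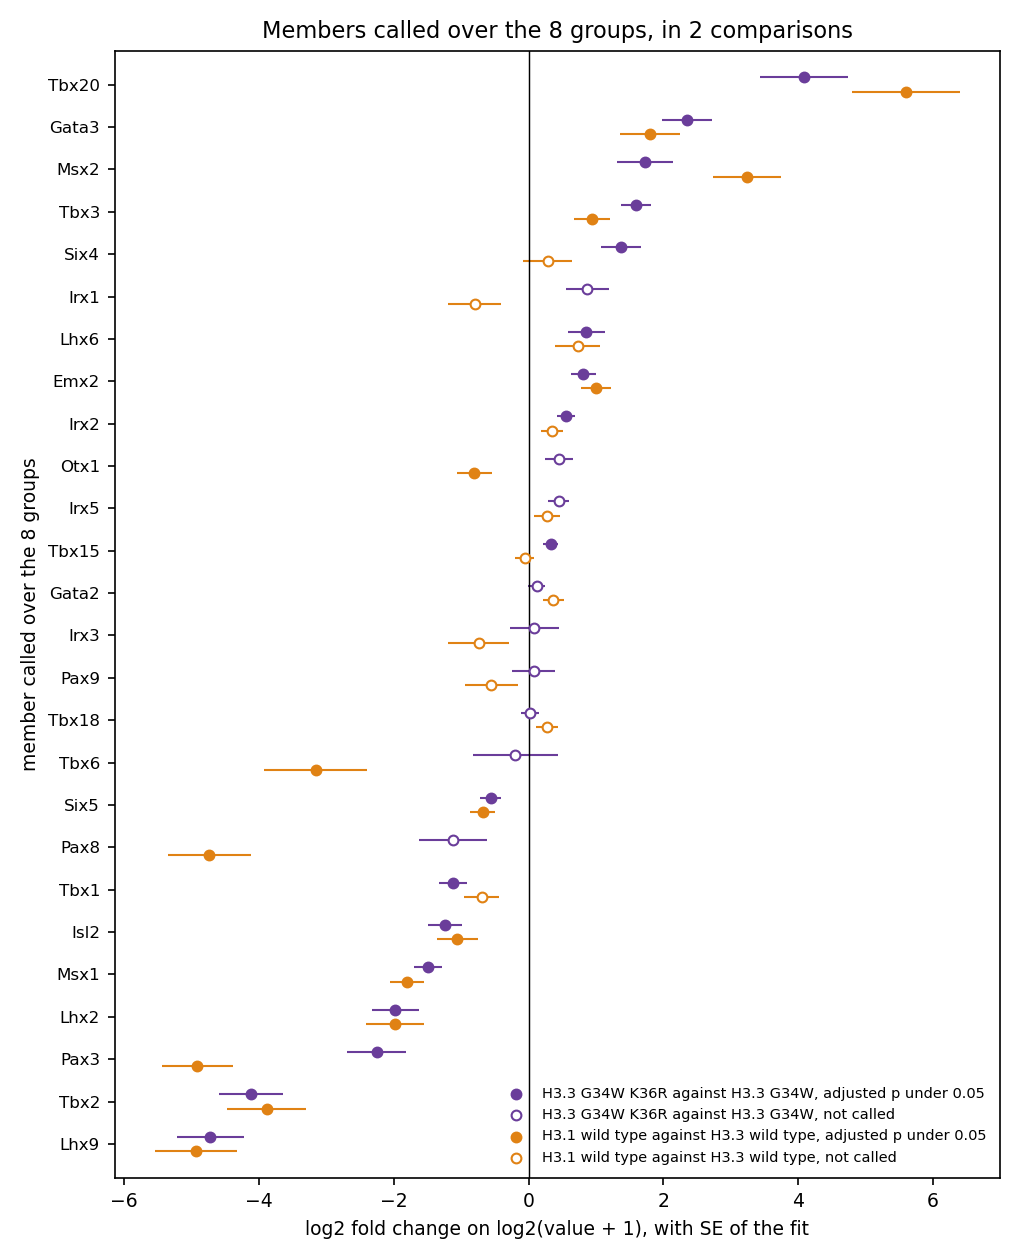
Log2 fold change on log2(value + 1) with the SE of the fit (x axis) for the 26 genes called over the 8 groups (y axis), in H3.3 G34W K36R against H3.3 G34W (purple) and H3.1 wild type against H3.3 wild type (orange). Filled points have an adjusted p under 0.05; for Tbx20, Lhx9 and Tbx6, with few reads in a group, the fitted size depends on the 1 added to each value. Tbx20 lies highest and Lhx9 lowest in both, and Pax8, Tbx6 and Otx1 are called in the orange comparison and not in the purple one.

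The G34W form of H3.1 was set against wild-type H3.1, the same substitution in the other histone. The median log2 fold change over the 32 genes was 0.22, against less than 0.01 in size over all genes. limma called 0 of the 32 and 0 of all genes (0.0%), and 6 of the 32 had an unadjusted p under 0.05 (Six5, Tbx6, Otx1, Irx1, Lhx9 and Pax9). Irx1 was at 551 and 1364 against 438 and 501 and Pax9 at 123 and 241 against 102 and 102. In both replicate 2 of H3.1 G34W was the high library and replicate 1 lay close to H3.1 wild type. The count was 7 without H3.1 G34W replicate 1 and 1 without H3.1 wild type replicate 1. The difference between the G34W effects in H3.3 and in H3.1 was tested as an interaction, which called 0 of 32 (0.197% of all genes, 0.11% higher and 0.0868% lower) and had 4 at an unadjusted p under 0.05: Gata2, Pax3, Tbx1 and Tbx6. It was 0.66 ± 0.20 for Gata2 (adjusted p = 0.278) and -2.16 ± 0.69 for Pax3 (adjusted p = 0.303) on the log2 scale. The interaction count was 3 without H3.1 G34W replicate 1 and 1 without H3.1 wild type replicate 1 or H3.3 G34W replicate 2.

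Proteins that work with these factors were followed as a list of 29 genes, 25 of which were tested: Eya and Dach with Six2 and its relatives, Zfpm with Gata, Ldb and Lmo with the LIM-homeodomain factors, Tle co-repressors, and Pbx, Meis and Pknox co-factors of homeodomain proteins. In G34W K36R against G34W 5 rose and 4 fell, with a median log2 fold change of 0.19. The 9 called are 36% of the 25, near the 30.6% of all genes. Eya1, a co-activator for the Six2 family, rose from 2.82 and 8.75 to 49.9 and 60.8 (3.20 ± 0.45), and the co-repressor gene Tle4 and the co-factor gene Meis2 rose too (1.23 ± 0.23 and 1.01 ± 0.15). Lmo2, a LIM-only adaptor, fell from 968 and 68.9 to 1.96 and 0.882. In wild-type H3.1 against wild-type H3.3 4 rose and 4 fell (median -0.24, 32.0% called against 33.4% of all genes), Tle4 (1.83 ± 0.28) and Eya1 (2.38 ± 0.55) on the higher and Tle2 (-2.40 ± 0.39) and Meis3 (-2.09 ± 0.37) on the lower side. In G34W K27R against G34W 5 rose and 3 fell (median 0.05, 32.0% called against 21.6% of all genes), among them Dach1, a co-repressor that works with the Six2 family, at 79.9 and 96.3 against 0 and 2.19, Eya1 (2.94 ± 0.45), Tle4 (1.29 ± 0.23) and Eya3 (0.79 ± 0.15). None was called in the remaining comparisons between 2 groups. When each close pair stood as 1 sample 1 of these calls held, Tle2 in H3.1.

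Of the 11 PRC2 genes, all tested, 3 rose and 3 fell in wild-type H3.1 against wild-type H3.3: Suz12, Aebp2 and Ezh2 rose and Phf19, Ezh1 and Phf1 fell. These 6 are 54.5% of the 11, where 33.4% of all genes were called. Suz12, a core subunit, was at 7737 and 6713 against 2537 and 2540.1 (1.50 ± 0.25, adjusted p = 0.00163), and Phf19, an accessory subunit that binds methylated lysine 36, at 69.7 and 44.0 against 424 and 443 (-2.94 ± 0.48, adjusted p = 0.00151). Ezh1 was at 597 and 503 against 2533 and 2539 (-2.21 ± 0.42, adjusted p = 0.00353). In G34W K36R against G34W Suz12 (1.21 ± 0.20) and Aebp2 (0.57 ± 0.11) rose and Phf19 (-2.29 ± 0.39) fell, and in G34W K27R against G34W Phf19 (-2.45 ± 0.39) and Ezh2 (-0.91 ± 0.24) fell. The calls were 27.3% and 18.2% of the 11, below the 30.6% and 21.6% of all genes. None was called in the other comparisons between 2 groups, where the median log2 fold change was -0.30 in G34W, -0.23 in G34R and -0.08 in K27R against H3.3 wild type and -0.33 between the H3.1 groups. When each close pair stood as 1 sample 1 of these calls held, Phf19 in H3.1. Whether the levels of these subunits bear on the developmental genes was not tested.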

How the data were processed

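Enriched messenger RNA of 16 libraries was sequenced. The submitters' processing notes name RSEM 1.2.4 and mm9. The deposited signal is named as median-normalized by the authors, and aligner, annotation and filters are not given in the sources used here. Every value was a multiple of a hundredth of 1 step per library, read as RSEM counts times a constant; 41.7 to 47.6% of the values above 0 were whole reads (tolerance 0.01 reads), so no count model was used. A second deposited table repeats 180 of the rows.

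Values were tested as log2(value + 1), for genes with a mean of at least 10, with limma 3.58.1 (R 4.3.3; robust eBayes with a trend, two-sided, Benjamini-Hochberg over 12670 genes, threshold 0.05; statmod 1.5.0) in 1 fit of 8 groups, 15 samples and 7 residual degrees of freedom; the script was tested on simulated data. A lone sample in a group is taken to vary as the other groups do. Genes were named if called, or if the libraries of 2 groups did not overlap, the log2 fold change was past 1 and a mean was at least 50; the 10 highest means and the 4 genes on each side of the silent threshold were added. Ratios are given where a group averaged 3 reads or fewer per library, with exact 95% counting intervals. Members and lists were chosen with earlier results of these data known. RefSeq promoter windows were matched by symbol. Some genes of the set count in every total and are not reported here.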

Additional observations from a re-analysis of the deposited data

How the results depend on the processing

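None of the 50 fold changes of named genes changed sign under an alternative that gave it a value (45 had one under every alternative; the 4 of Lhx9 and the 1 of Tbx6 had none under a minimum mean of 50). The alternatives were a pseudocount of 0.5 or 5, no filter or a minimum mean of 50, TMM rescaling, eBayes without trend and robust, the compared groups alone, wild-type libraries counted separately, close pairs counted as 1 sample, a replicate block, and each library left out in turn. Of 252 recomputed counts and shares, 63 moved by over 1.5 times. With close pairs as 1 sample the counts of genes called were 7 over the 8 groups, 6 for H3.1 against H3.3 wild type and 0 for G34R, K27R, G34W K27R and G34W K36R. Over all 12670 genes these counts were 1030, 621, 0, 0, 347 and 132 in this order. In the compared groups alone they were 18 for G34R, 19 for K27R, 0 for G34W K27R, 7 for G34W K36R and 8 for H3.1 against H3.3 wild type; with wild-type libraries counted separately 3 for G34W, 4 for G34R and 5 for K27R. A pseudocount of 5 gave 2 for G34W, 2 for G34R and 2 for K27R, and no filter 0 for G34R. Shared replicate numbers did not pair libraries (correlations of replicate differences from -0.265 to 0.0598 over 28 pairs of groups); with a replicate block the counts were 3 for G34W, 4 for G34R and 4 for K27R. Leaving out 1 library gave 0 to 3 for G34W, 0 to 3 for G34R, 0 to 2 for K27R, 1 to 9 for G34W K27R, 10 to 20 for G34W K36R, 0 to 7 for H3.1 G34W, 14 to 19 for H3.1 against H3.3 wild type, 20 to 29 over the 8 groups and 0 to 3 for the interaction. In the compared groups alone, the G34R and K27R fits set wild type as 1 sample against a close pair, whose spread alone was used. The share of all genes called in that setting is not given here. Those counts therefore do not show that members were called more often than other genes. Some of these fits had fewer samples, and the cause of the changes was not tested. The silent share was 55.1 to 56.4% without 1 library. Differences among silent genes were not tested.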

Other observations

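The expressed genes Nkx2-1 and Nkx3-2 entered no test because their mean was under 10. Nkx2-1, a factor of thyroid and lung, was at 20.5 in replicate 2 of H3.1 wild type and at 2.64 or less in the other 15 libraries. Nkx3-2, which acts in cartilage of the axial skeleton, was at 12.6 and 7.75 with H3.3 wild type and at 1 read or none in each of the 6 libraries of both H3.1 groups and of G34W K36R. In the other H3.3 groups it ran from 1.25 to 10.7, and the 1.25 of K27R replicate 2 was also 1 read.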
